A study of Drosophila melanogaster with 4 samples.

Results

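The regions described here are the H4K20me1-enriched regions that lie within 2 Mb of the centromere end of the assembled arms 2L, 3L, X and 3R of Drosophila melanogaster. They were chosen by position alone. On 2L, 3L and X the region had to end less than 2 Mb from the sequence end given in the file headers, and on 3R it had to start at or before base 2000000, because the centromere lies at the right end of the first 3 sequences and at the left end of 3R. Of the 17005 enriched regions in the 3 deposited lists, 776 met this rule. They were 328 of 6478 in replicate 1, 209 of 5209 in replicate 2 and 239 of 5318 in the series-wide list.

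The measurement was chromatin immunoprecipitation and sequencing (ChIP-seq) with an antibody to H4K20me1, lot 3, on nuclei of third-instar (L3) larvae of the wild-type strain Oregon-R. The labels name 2 ChIP replicates and 2 inputs of the same strain and stage, 1 input for each ChIP, and no other genotype or treatment. The lists used here are the authors' regions of significant enrichment, called for each ChIP replicate and once for the series, on FlyBase release 5. The labels give neither the number nor the sex of the larvae, nor whether the replicates were separate collections, so the spread between replicates may be technical. The chromatin came from whole larval tissue, and a smaller share of cells carrying the mark cannot be told apart from less of it per cell.

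H4K20me1 is monomethylation of lysine 20 of histone H4. The methyltransferase PR-Set7 places it, and Suv4-20 can extend it to the dimethyl and trimethyl forms, of which the trimethyl form is best known from pericentric heterochromatin. The mark is tied to the cell cycle and to chromosome compaction. Toward the centromere the arms become rich in repeats and pass into heterochromatin, and the assembled sequences reach into that transition to a different extent on each arm. Whether these 2 Mb stretches are euchromatic could not be checked from lists of H4K20me1 regions, so they are called centromere-proximal here, without that word.

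On 2L, 3L and X the last 2 Mb before the centromere end carried fewer H4K20me1 regions per Mb, and fewer long ones, than the rest of the same arm. On 3R they carried more, and regions reached the end of the sequence. The most covered 500 kb of 3R lay from 1.0 to 1.5 Mb (55.0% and 54.6% in replicates 1 and 2), not at the end (29.1% and 24.0%). On 3L, replicate 1 regions covered 9.91% of the proximal 2 Mb and replicate 2 regions 3.46%, against 28.0% and 24.8% of the rest of the arm. On X they covered 7.69% and 5.11% of the proximal 2 Mb, against 23.2% and 21.2% of the rest. Both arms thus lay below the rest in each replicate, with no overlap between the stretches. On 2L the proximal shares were 20.6% and 9.52%, against 24.7% and 22.3% of the rest, so the arm also lay below in both replicates but by very different amounts. On 3R the order was the opposite, with 29.8% and 28.2% of the proximal 2 Mb covered, against 25.4% and 24.9% of the rest.

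The mean difference, proximal minus rest, was -19.7 ± 2.33 percentage points on 3L (SD, n = 2 replicates), -15.8 ± 0.46 on X, -8.46 ± 6.12 on 2L and 3.80 ± 0.76 on 3R. Over the 4 arms together 14.3% ± 3.83 of the proximal stretches was covered and 24.4% ± 1.37 of the rest, a difference of -10.1 ± 2.46 points. Each difference was larger than its own spread between replicates. An exact sign-flip permutation test over 2 replicates cannot give a two-sided p below 0.5, which is the value for every arm, so none of these differences can be called significant. On 3R the difference depended on the length of the stretch. Its mean was -0.06 points for the first 1 Mb and 0.07 points for the first 3 Mb, with opposite signs in the 2 replicates at each length. The other 3 arms stayed below the rest of the arm at both lengths.

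**Figure D1:**
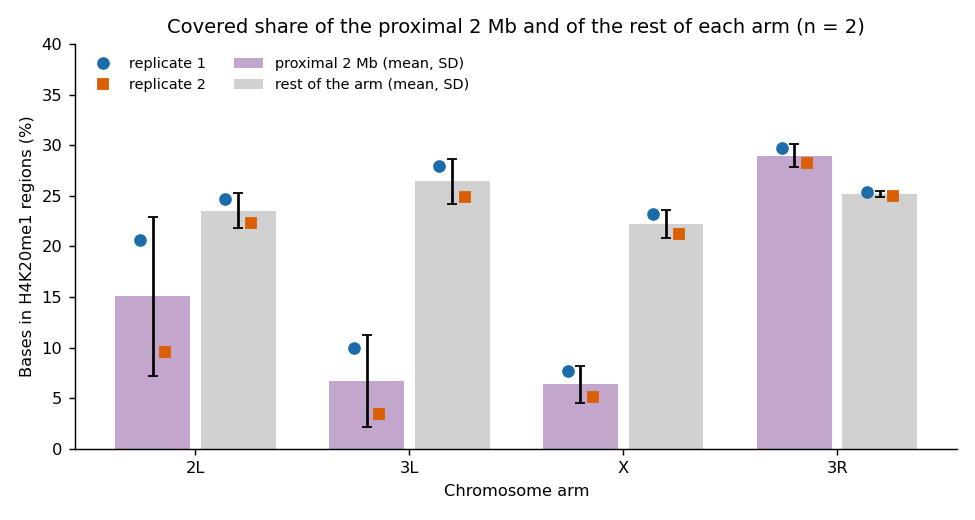
Percent of bases in H4K20me1 regions in the centromere-proximal 2 Mb (purple bars) and in the rest of the same arm (grey bars), for arms 2L, 3L, X and 3R; bars are means and whiskers SD of the 2 replicates, shown as a circle (replicate 1) and a square (replicate 2). The proximal bar is the lower of the pair on 2L, 3L and X and the higher on 3R, and the replicates lie farthest apart in the proximal stretch of 2L, at 20.6% and 9.52%.

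Set among consecutive windows of 2 Mb counted from the centromere end, the proximal window of 3L was the least covered of 12 in both replicates. The other windows of that arm had 19.1 to 36.6% in replicate 1 and 19.6 to 33.6% in replicate 2. On X the proximal window was likewise the lowest of 11 in both replicates, with 15.8 to 29.2% and 15.1 to 32.2% in the others. On 2L it was the lowest of 11 in replicate 2, and the 4th lowest in replicate 1. On 3R it was the 6th highest of 13 in both. The window from 2 to 4 Mb from the end was covered over 27.3% and 26.2% on 3L, 24.8% and 28.1% on X, 21.7% and 19.2% on 2L, and 15.9% and 14.3% on 3R in replicates 1 and 2. On 3R this was the least covered of all windows of the arm in both replicates. On X the first 500 kb of that window was still low, at 11.7% and 11.5%. At the other end of the arms the last 2 Mb before the telomere were covered over 32.7% and 34.0% on 3L, 24.0% and 27.4% on X, 29.9% and 30.7% on 2L, and 26.6% and 27.3% on 3R.

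The regions were also sparser on 2L, 3L and X. In the proximal 2 Mb of 3L there were 62 regions in replicate 1, 22 in replicate 2 and 29 in the series-wide list, or 31.0, 11.0 and 14.5 per Mb, against 53.4, 43.4 and 42.9 per Mb in the rest of the arm. X had 57, 33 and 45, or 28.5, 16.5 and 22.5 per Mb, against 50.3, 46.5 and 48.1. On 2L there were 93, 49 and 61, or 46.5, 24.5 and 30.5 per Mb, against 48.8, 40.5 and 40.2. The 3R stretch held 116, 105 and 104, or 58.0, 52.5 and 52.0 per Mb, against 46.7, 41.2 and 40.6. In all 3 lists the density was thus below that of the rest of the arm on 2L, 3L and X, and above it on 3R.

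Long regions were counted next. Of regions of 10 kb or more, the proximal 2 Mb of X had 0 in either replicate and 1 in the series-wide list. 3L had 3 in replicate 1, 0 in replicate 2 and 1 in the series-wide list, and 2L had 10, 4 and 9. Per Mb this was 0, 0 and 0.5 on X, against 4.70, 4.26 and 6.66 in the rest of the arm, and 1.5, 0 and 0.5 on 3L, against 5.86, 5.99 and 7.90. On 2L it was 5.0, 2.0 and 4.5, against 5.52, 5.24 and 6.95, so replicate 1 was close to the rest of the arm there. 3R had 16, 13 and 20, which is 8.0, 6.5 and 10.0 per Mb, against 5.67, 6.29 and 7.41 per Mb in the rest of 3R. The longest replicate 1 region was 9.12 kb in the proximal 2 Mb of X and 17.8 kb in that of 3L, against 84.6 kb and 70.3 kb in the rest of these arms. Median lengths differed less. In replicate 1 they were 2052 bp in the proximal stretch and 2715 bp in the rest on 3L, 2079 and 2595 bp on X, 2593 and 2475 bp on 2L, and 2701 and 2640 bp on 3R. In replicate 2 they were 2321 and 3291 bp on 3L, 2919 and 2797 bp on X, 2932 and 3016 bp on 2L, and 3740 and 3397 bp on 3R, so the order of the medians was the same in both replicates on 3L and 3R alone.

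**Figure D2:**
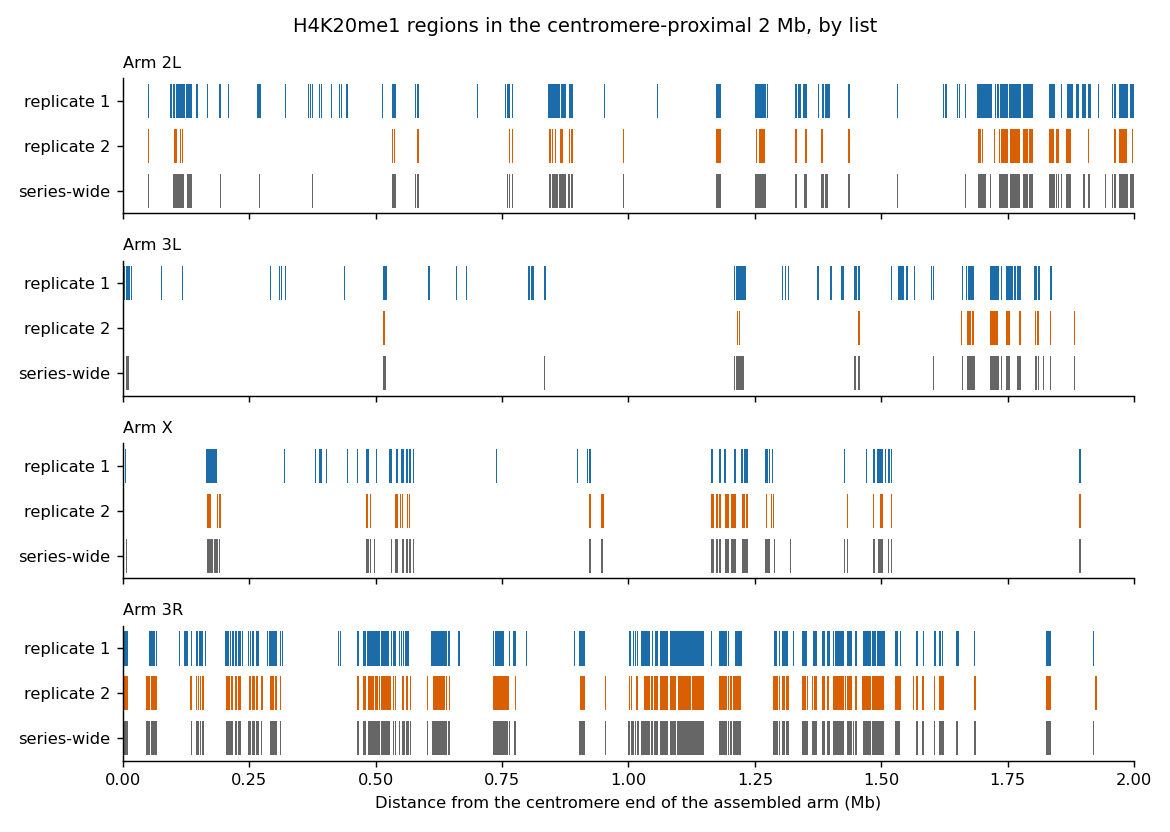
Position of every H4K20me1 region in the proximal 2 Mb of arms 2L, 3L, X and 3R by distance from the centromere end in Mb; the 3 tracks of an arm are replicate 1 (blue), replicate 2 (orange) and the series-wide list (grey), and each bar spans a region to scale. Replicate 2 has no region in the first 500 kb of 3L, where replicate 1 has 11, and all 3 tracks are empty on X between 1.52 and 1.89 Mb, while on 3R all 3 tracks begin in the first kilobases.

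The share of covered bases was not uniform along the 2 Mb. On 3L it rose in steps of 500 kb outward from the centromere end, at 4.71%, 6.02%, 9.77% and 19.2% in replicate 1. In replicate 2 the same steps had 0%, 0.61%, 2.03% and 11.2%. On 2L the outermost 500 kb also stood above the other steps, at 36.7% in replicate 1 and 22.0% in replicate 2, against 13.9 to 16.6% and 2.27 to 7.65% closer in. X had no such order. Its most covered step was from 1.0 to 1.5 Mb, at 10.9% and 9.70%, and the outermost step was the least covered, at 2.74% and 1.72%. On 3R the steps had 29.1%, 25.0%, 55.0% and 10.0% in replicate 1 and 24.0%, 23.5%, 54.6% and 10.7% in replicate 2. The peak from 1.0 to 1.5 Mb on 3R, 54.8% ± 0.25 (SD, n = 2), was where the replicates lay closest together.

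With the 4 arms joined, the steps outward had 11.2% ± 5.08, 11.1% ± 3.21, 20.6% ± 2.97 and 14.3% ± 4.07. The step from 1.0 to 1.5 Mb owed its height to 3R. Without that arm, which was singled out after its values were seen, the steps had 6.08% ± 5.58, 6.67% ± 3.92, 9.20% ± 3.88 and 15.6% ± 5.59. The spread between replicates is as large as most of the differences between neighbouring steps here, so only the outward order within each replicate of 3L is given as an order. In bins of 250 kb the replicates ranked the 32 proximal bins alike (Spearman's rho across bins 0.83; the bins share the 2 libraries). Replicate 1 had the higher share in 8 of 8 bins on 2L, 8 of 8 on 3L, 6 of 8 on X and 4 of 8 on 3R.

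**Figure D3:**
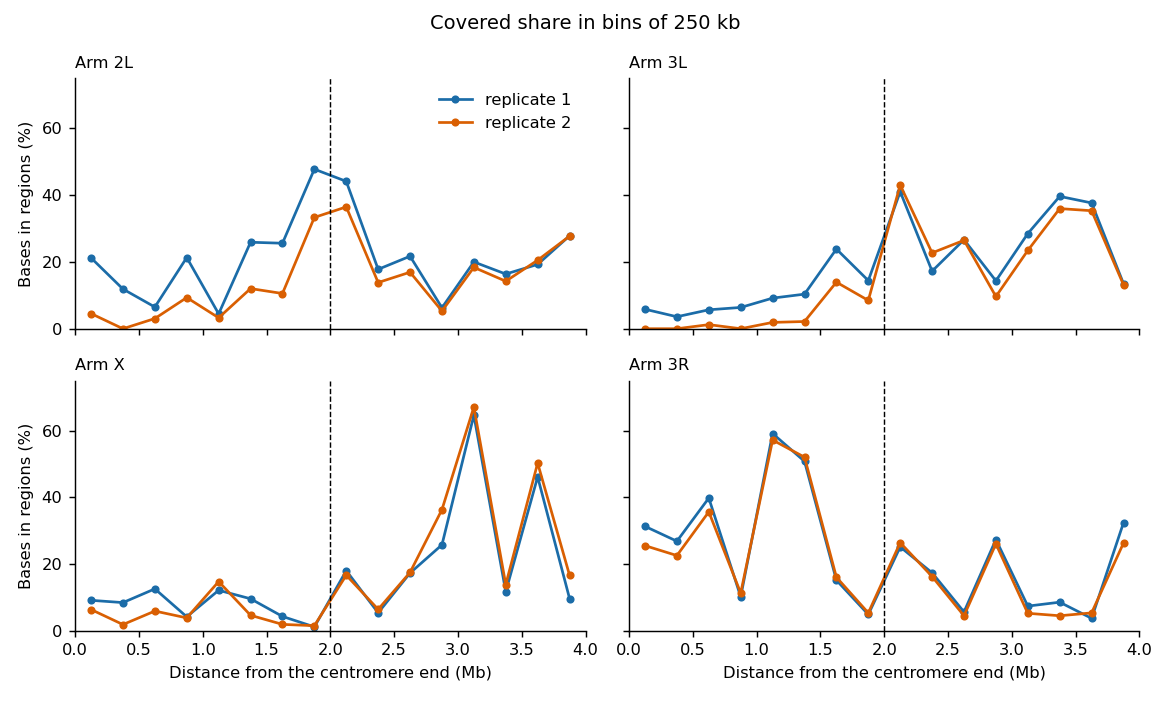
Percent of bases in H4K20me1 regions in bins of 250 kb (points at bin centres) against distance from the centromere end in Mb, for replicate 1 (blue) and replicate 2 (orange) on each arm; the dashed line marks 2 Mb. On 3R the replicates lie close together, at 55.0% and 54.6% between 1.0 and 1.5 Mb, and replicate 1 lies above replicate 2 in 8 of 8 proximal bins on 2L and on 3L.

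The replicates differed in how much of the proximal stretches they covered. The ratio of bases enriched in replicate 1 to those in replicate 2 was 2.86 in the proximal 2 Mb of 3L, against 1.13 in the rest of the arm. It was 2.16 against 1.11 on 2L, 1.51 against 1.09 on X and 1.06 against 1.02 on 3R. Over 2L, 3L and X together it was 2.11 in the proximal stretches, 1.00 from 2 to 4 Mb and 0.94 in the 2 Mb next to the telomere. For comparison it was 3.85 on chromosome 4 and 7.15 on the 7 heterochromatic and unplaced sequences. Each ratio compares 2 libraries. Read depth and the part of each stretch to which reads can be placed are unknown, and their part in these values was not tested.

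Most replicate 2 regions in the proximal stretches had a counterpart in replicate 1, and many replicate 1 regions had none in replicate 2. Of the 209 replicate 2 regions 183 shared at least 1 bp with a replicate 1 region (87.6%, exact Clopper-Pearson 95% interval 82.3 to 91.7%), near the 82.9% of all replicate 2 regions of the series. Of the 328 replicate 1 regions 167 were found in replicate 2 (50.9%, 45.4 to 56.4%), below the 66.4% of all replicate 1 regions. These intervals reflect counting error alone, and regions of a list are not independent. By arm, 16 of 62 replicate 1 regions were found on 3L (25.8%, 15.5 to 38.5%), 37 of 93 on 2L (39.8%, 29.8 to 50.5%), 25 of 57 on X (43.9%, 30.7 to 57.6%) and 89 of 116 on 3R (76.7%, 68.0 to 84.1%). In the rest of these arms the shares were 67.3%, 70.2%, 70.0% and 74.9%. Replicate 2 had fewer bases to meet in the proximal stretches of 2L, 3L and X, where it covered 6.03% of them together. When regions had to cover each other over at least 50%, 102 pairs remained, which is 31.1% of the replicate 1 regions and 48.8% of the replicate 2 regions, against 36.8% and 45.8% over the whole lists.

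Close to the end of 2L, 3L and X the replicate 1 regions were rarely found in replicate 2. In the first 500 kb of the 3 arms together, 8 of 53 were found (15.1%, 6.75 to 27.6%). The steps farther out were alike, at 19 of 43 (44.2%), 22 of 48 (45.8%) and, in the outermost 500 kb, 29 of 68 (42.6%, 30.7 to 55.2%). All lay below the 69.1% in the rest of these arms. On 3L 0 of the 11 in the first 500 kb and 1 of the 10 in the next were found. On 3R 29 of 40 were found in the first 500 kb (72.5%, 56.1 to 85.4%).

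By bases, the Jaccard index (shared bases as a share of all bases that either replicate marked) was 27.6% in the proximal 2 Mb of 3L and 65.2% in the rest of the arm. It was 35.8% and 57.9% on X, 41.1% and 64.2% on 2L, and 67.8% and 68.2% on 3R. The index falls when the lists differ in covered bases, so it is not separate from the ratios given above. Of the replicate 2 bases, 83.6% on 3L were also enriched in replicate 1, against 84.0% in the rest of the arm. This share was 92.2% against 82.4% on 2L, 66.1% against 76.6% on X and 83.1% against 81.9% on 3R. Bases enriched in replicate 1 alone made up most of the disagreement. On 2L they came to 236 kb, beside 176 kb enriched in both and 14.8 kb in replicate 2 alone. On 3L the amounts were 140 kb, 57.9 kb and 11.4 kb, and on X 86.4 kb, 67.5 kb and 34.7 kb. On 3R bases in both prevailed, with 469 kb, beside 127 kb in replicate 1 alone and 95.5 kb in replicate 2 alone.

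The same comparison was made within classes of length. Of replicate 1 regions under 2 kb on 2L, 3L and X, 6 of 89 in the proximal stretches were found (6.74%, 2.51 to 14.1%), against 462 of 1157 in the rest of these arms (39.9%, 37.1 to 42.8%). From 2 to 5 kb it was 38 of 84 (45.2%, 34.3 to 56.5%) against 955 of 1248 (76.5%, 74.1 to 78.8%). From 5 to 10 kb it was 22 of 26 (84.6%, 65.1 to 95.6%) against 489 of 506 (96.6%), and at 10 kb or more 12 of 13 against 343 of 344. On 3R the classes lay close together, with 21 of 42 (50.0%) proximal regions under 2 kb found, against 208 of 432 (48.1%), and 33 of 39 (84.6%) from 2 to 5 kb, against 367 of 442 (83.0%).

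**Figure D4:**
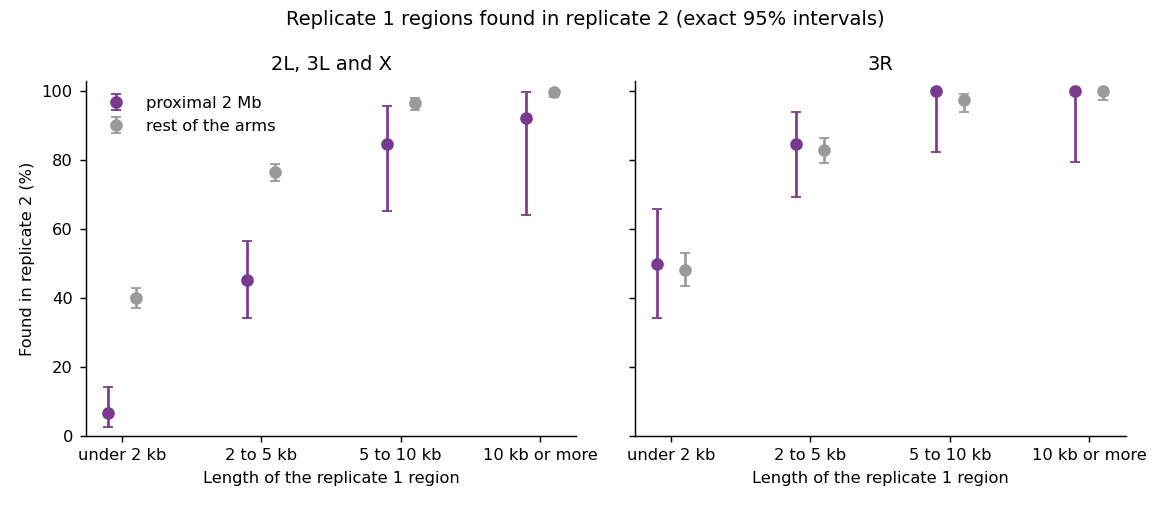
Percent of replicate 1 regions that share at least 1 bp with a replicate 2 region, by length of the region, for the proximal 2 Mb (purple) and the rest of the same arms (grey), with 2L, 3L and X together on the left and 3R on the right; whiskers are exact 95% intervals, which cover counting error only. Under 2 kb the proximal share is 6.74% against 39.9% on the left, and 50.0% against 48.1% on the right.

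The authors' score of a region is treated as a log2 value with an unknown offset in each list, so it is used only within a list. In replicate 1 the proximal regions scored higher than those in the rest of the same arm on 2L, 3L, X and 3R. The medians were 0.91 against 0.66 on 2L, 0.99 against 0.68 on 3L, 0.82 against 0.73 on X and 0.72 against 0.65 on 3R. At or above the median of the whole list, 0.71, lay 72 of the 93 on 2L (77.4%), 49 of 62 on 3L (79.0%), 40 of 57 on X (70.2%) and 60 of 116 on 3R (51.7%). In the rest of these arms the shares were 43.6%, 46.0%, 54.7% and 42.4%. Replicate 2 showed no such excess, with 46.9%, 40.9%, 48.5% and 46.7% of the proximal regions of these arms at or above its own list median. Replicate 1 regions of 2L, 3L and X that were not found in replicate 2 were short, at a median of 1782 bp against 4483 bp for those found, and their median score was 0.88 against 0.92. Over the rest of these arms those medians were 0.67 and 0.71. In replicate 1 the link between length and score was weaker in the proximal stretches. Spearman's rho was 0.28 across the 212 proximal replicate 1 regions of the 3 arms and 0.61 in the rest. Replicate 2 had 0.81 in the proximal stretches and 0.82 in the rest.

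The highest-scored proximal regions of replicate 1, listed for each arm after their values were seen, were absent from replicate 2 on 2L, 3L and X. They were on 2L from 22801472 to 22802803 (score 3.70, 1332 bp), on 3L from 22804080 to 22806298 (score 2.12, 2219 bp) and on X from 21957273 to 21958661 (score 1.60, 1389 bp). The 2L and X regions were also absent from the series-wide list. On 3R the highest was from 1824805 to 1834959 (score 2.01, 10155 bp), and replicate 2 had a region there. In replicate 2 the highest-scored region of each of the 4 arms overlapped replicate 1 and the series-wide list.

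**Figure D5:**
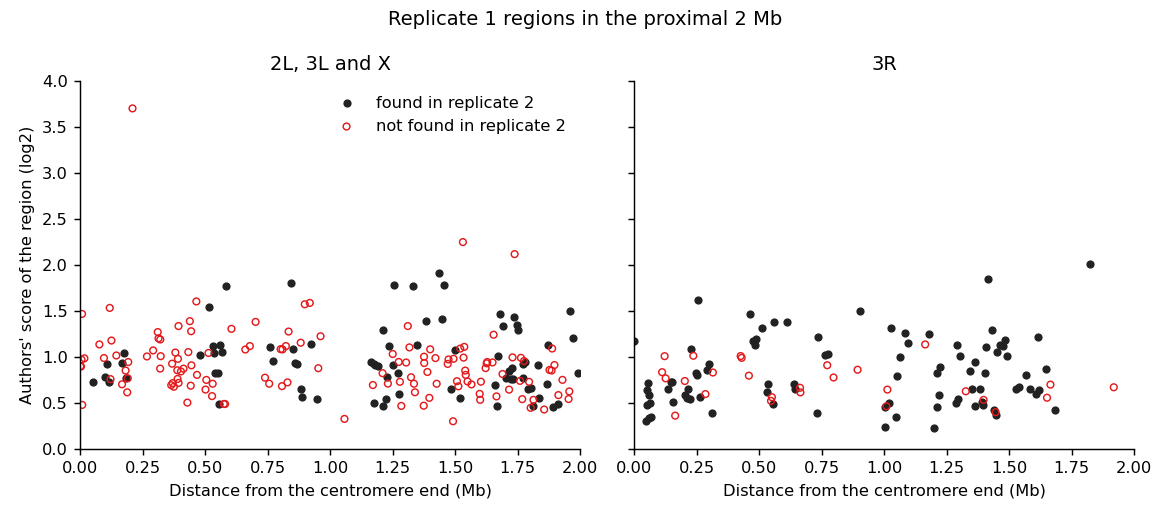
The authors' score (log2, unknown offset) of each replicate 1 region in the proximal 2 Mb against distance from the centromere end in Mb, for 2L, 3L and X together (left) and 3R (right); filled black points were found in replicate 2 and open red points were not. On the left the open points fill most of the first 500 kb, where 8 of 53 regions were found, and reach the highest score of 3.70.

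The series-wide list was set against both replicates. Of its 239 proximal regions 145 overlapped both replicates (60.7%, 54.2 to 66.9%), near the 61.5% of the whole list. Another 56 overlapped replicate 1 alone (23.4%, against 17.1% of the whole list), 26 replicate 2 alone (10.9%, against 13.2%) and 12 neither (5.02%, against 8.25%). On 3L 14 of 29 overlapped both (29.4 to 67.5%) and 12 replicate 1 alone. On X the counts were 22 (33.7 to 64.2%) and 12 of 45. They were 35 (44.1 to 70.0%) and 22 of 61 on 2L, and 74 (61.4 to 79.6%) and 10 of 104 on 3R. The interval for both replicates held the 61.5% of the whole list on each arm. For 2L, 3L and X together, 52.6% overlapped both (43.8 to 61.2%), against 61.4% in the rest of these arms. Replicate 1 alone was overlapped by 34.1% (26.1 to 42.7%), against 17.2%. For 3R the shares were 71.2% against 63.3% for both, and 9.62% (4.71 to 17.0%) against 13.2% for replicate 1 alone. Of the bases enriched in replicate 1 alone, the list held 31.7% on 3L, 40.4% on 2L, 48.6% on X and 51.6% on 3R in the proximal stretches, against 60.1 to 66.4% in the rest of these arms. Bases enriched in both replicates were held almost whole, at 99.4 to 99.8% in the 4 proximal stretches.

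Among the 4 proximal stretches that of 3R held the longest domain, although longer ones lay in the rest of each arm. Of the series-wide regions that overlapped both replicates it ran from 1096726 to 1149790 (score 1.07, 53.1 kb), 1.10 Mb from the end. Replicate 1 covered all of it with 1 region and replicate 2 covered 91.1% with 4. The next on 3R ran from 612232 to 638302 (score 1.45, 26.1 kb), with a single region in each replicate and 95.6% enriched in both, and from 485240 to 509638 (score 1.03, 24.4 kb), which replicate 2 covered over 84.3% with 3 regions. The highest-scored were from 1824790 to 1834982 (score 2.06, 10.2 kb) and from 1414794 to 1427012 (score 1.87, 12.2 kb), of which 97.9% and 98.4% were enriched in both replicates.

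On 2L the longest reached across the 2 Mb boundary, from 20980584 to 21019882 (score 0.75, 39.3 kb), and its bases beyond 2 Mb were not counted in the covered share. Replicate 1 covered 95.7% of it with 3 regions and replicate 2 covered 82.2% with 4. At 99.8 kb from the end of 2L lay a region from 22891036 to 22911762 (score 0.57, 20.7 kb), of which 85.9% was enriched in replicate 1 and 45.3% in replicate 2. The third in length, from 21237658 to 21257530 (score 1.13, 19.9 kb), had 93.0% of its bases enriched in both. The highest-scored on 2L were from 21677336 to 21682652 (score 1.87, 5.32 kb) and from 22165358 to 22169450 (score 1.75, 4.09 kb), which replicate 2 covered over 95.7% and 90.4%, and replicate 1 over 99.8% and 100%.

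On 3L the longest ran from 22811842 to 22828626 (score 0.77, 16.8 kb), 1.71 Mb from the end, with 87.9% enriched in both replicates. The second, from 23321554 to 23331234 (score 0.82, 9.68 kb), was enriched over all of its length in replicate 1 and over 48.9% in replicate 2. The third, from 22788860 to 22797778 (score 1.34, 8.92 kb), was also the second in score, behind a region from 22858188 to 22865416 (score 1.40, 7.23 kb). Of these, 86.0% and 77.1% were enriched in both. All but the second in length lay between 1.6 and 1.8 Mb from the end.

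On X the longest ran from 22243282 to 22257000 (score 0.87, 13.7 kb), 166 kb from the end, where replicate 1 covered 99.4% and replicate 2 covered 62.4%. The next were from 21878108 to 21883768 (score 0.72, 5.66 kb) and from 21857688 to 21863308 (score 0.80, 5.62 kb), with 87.8% and 51.2% enriched in both. The highest-scored were from 20920376 to 20924820 (score 1.14, 4.45 kb) and from 21239776 to 21244298 (score 1.13, 4.52 kb), with 93.0% and 94.3% in both. The 2 highest scores on X were thus below the 2 highest on each of the other arms in the same list.

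The arms also differed in how close to the end the first region lay. On 3R both replicates and the series-wide list began within 1 kb, with regions from 788 to 11037 in replicate 1 and from 378 to 10548 in replicate 2, which overlapped over 95.2% of the replicate 1 region. On 2L the first region lay 49.8 kb from the end in replicate 1 and 50.2 kb in replicate 2, at the same place, from 22958923 to 22961733 and from 22959411 to 22961358. On X it lay 4.83 kb from the end in replicate 1, from 22416631 to 22417994, and 167 kb in replicate 2, from 22247751 to 22256308. On 3L replicate 1 had a region at the very end, from 24542585, whose deposited end of 24544242 passes the sequence end in the header. The first replicate 2 region on 3L lay 515 kb in, from 24027679 to 24029011, inside a replicate 1 region. The series-wide list began 50.0 kb from the end of 2L, 7.58 kb from that of X and 7.00 kb from that of 3L, in the last 2 cases on a region that overlapped replicate 1 alone.

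Long stretches held no region. In the proximal 2 Mb of X, 368 kb from 20532727 to 20900855 was empty in all 3 lists. The longest such stretch was 247 kb on 3L, from 23334568 to 23581233, 138 kb on 3R, from 1686681 to 1824789, and 116 kb on 2L, from 22310412 to 22426177. In replicate 2 alone the longest empty stretch came to 695 kb on 3L, from 23329374 to 24024454, and to 414 kb on 2L, from 22478629 to 22892212, while in replicate 1 the longest was 247 kb on 3L and 116 kb on 2L. The X gap was nearly the same in both, at 370 kb in replicate 1 and 368 kb in replicate 2. How many reads can be placed in these stretches is unknown, so an empty stretch does not show that the mark is absent.

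The longest proximal region found in a single replicate was longer in replicate 1 on each arm. On 2L it was 12.3 kb in replicate 1, from 22874740 to 22887042 (score 1.18), and 2.95 kb in replicate 2, from 21160349 to 21163298 (score 0.72). On 3L it was 6.88 kb, from 24529726 to 24536604 (score 1.47), 6.95 kb from the end, and 1.70 kb, from 22660299 to 22662000 (score 0.57). On X the lengths were 3.93 kb, from 20906610 to 20910534, and 3.83 kb, from 22229112 to 22232939, and on 3R 3.64 kb, from 121445 to 125086, and 3.44 kb, from 1427219 to 1430656.

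At the 2 Mb boundary itself the series-wide list had, as the last region inside and the first outside, the 39.3 kb region on 2L and one of 12.2 kb from 20965500 to 20977676 (scores 0.75 and 0.72). On 3L they were 1.79 kb from 22660296 to 22662086 and 1.34 kb from 22452456 to 22453798 (scores 0.28 and 0.23). On X they were 4.19 kb from 20528540 to 20532726 and 3.88 kb from 20392210 to 20396090 (scores 0.53 and 0.60), and on 3R 1.42 kb from 1923660 to 1925080 and 2.08 kb from 2169662 to 2171740 (scores 0.42 and 0.37).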

How the data were processed

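H4K20me1 ChIP-seq of wild-type L3 larvae is described from 3 lists of regions that the authors deposited, 1 per ChIP replicate and 1 for the series. Bowtie 0.12.7 is named in the submitters' processing notes, and per the file headers the coordinates are those of FlyBase release 5. The region caller, its threshold and the way the series-wide list was made: not given in the sources used here. The deposited score is treated as log2: relative to a recurring score, 2 to its power came out as a fraction whose denominator did not exceed 2000 (relative tolerance 1e-11) for 95.1% of the replicate 1 regions, 96.4% of replicate 2 and 82.6% of the series-wide list, against at most 1.13% with other bases. Read depth is unknown.

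The 1 row of replicate 2 marked as depleted was left out. Covered shares count bases clipped to the 2 Mb stretch and to the sequence end. Values were computed with Python 3.11.15, NumPy 2.4.6 and SciPy 1.17.1, and plotted with Matplotlib 3.10.9. Coverage and shared bases were exact in 20 of 20 simulations. The simulated lists shared whole copied regions, so partly overlapping regions were not checked. The members and comparisons were chosen with earlier results of these data known. Regions named are, per arm, the 3 longest and 2 highest-scored series-wide regions that overlap both replicates, the first from the end, the longest found in a single replicate, those on either side of 2 Mb, and the longest empty stretch. The gene table at hand is on release 6, so no gene or sequence is given.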

Additional observations from a re-analysis of the deposited data

Results flagged for a closer look

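The difference in covered share between the proximal 2 Mb and the rest of the arm had opposite signs on 3R and on the other arms, in every replicate. It was 3.80 percentage points on 3R, where both replicates were higher in the proximal stretch, and -8.46 points on 2L, -19.7 points on 3L and -15.8 points on X, where both replicates were lower. The difference between the arms was not tested, because 2 replicates cannot reach a two-sided exact permutation p below 0.5. On 3R the mean difference was close to 0 with the first 1 Mb and with the first 3 Mb, and the sign of the mean turned with the first 1 Mb. At both lengths replicate 1 was higher in the proximal stretch and replicate 2 lower. In steps of 500 kb the first 1 Mb was covered over 29.1% and 25.0% in replicate 1, and over 24.0% and 23.5% in replicate 2.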

How the results depend on the processing

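The negative difference of the 4 arms together kept its direction in the settings run. It was -13.0 points with the first 1 Mb, -12.9 in the series-wide list, -6.94 without 3L, -14.7 without 3R and -14.8 against the telomere-proximal 2 Mb; that comparison and the one with the next 2 Mb (-7.92) were chosen after seeing the data. Leaving out a replicate gave -11.9 to -8.40 points, and a covered share of 11.6 to 17.0%; without 3R that share was 9.38%. On 3R the mean difference was -0.062 points with the first 1 Mb, where replicate 2 alone was below the rest, and the cause was not tested. By arm, 21 covered shares stayed within 1 SD of the replicates and 7 did not; of the differences 19 stayed within it, 16 did not and 1, on 3R, turned its sign.

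The Jaccard index, 50.8% over the 4 arms, was 43.0% for the upper-scoring 50%, 42.4% with 1 Mb, 56.3% with 3 Mb, 51.7% with regions within 1 kb joined, and 54.5%, 54.5%, 52.9% and 36.5% without 2L, 3L, X and 3R. The ratio of replicate 1 to replicate 2, 1.47 in the proximal stretches, was 1.73 for the upper-scoring 50%, 1.71 with 1 Mb, 1.26 with 3 Mb, and 1.29, 1.36, 1.46 and 2.11 without 2L, 3L, X and 3R. In the rest of the arms, 1.08, it was 1.03, 1.09 with 1 Mb, 1.09 with regions joined, and 1.07, 1.07 and 1.11 without 2L, 3L and 3R.

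In steps of 500 kb, leaving out a replicate gave 7.61 to 14.8%, 8.79 to 13.3%, 18.5 to 22.7% and 11.4 to 17.2% outward. Without 3R the first 3 steps had 6.08%, 6.67% and 9.20%. The third had 16.8% for the upper-scoring 50%, and 23.7%, 25.5% and 24.0% without 2L, 3L and X; the outermost had 9.26% without 2L. The counts of regions found in the other replicate were 72 of 221 (32.6%) and 74 of 97 (76.3%) for the upper-scoring 50%, and 102 each with reciprocal overlap. In the upper-scoring 50%, 67 of 126 series-wide regions (53.2%) overlapped both. The upper-scoring lists are shorter by construction, and the cause of the lower shares was not tested. The same shares over all upper-scoring regions of the lists are not given here. Whether the lower shares are particular to the proximal stretches is therefore unknown. No paired analysis was possible because no list of regions was used for the inputs and all ChIP samples form 1 group. Precision is limited by 2 replicates and by unknown depth.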
